A study of Homo sapiens with 12 samples.

Results

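The 9 tubulin genes TUBB, TUBB2A, TUBB2B, TUBB3, TUBB4B, TUBB6, TUBA1A, TUBA1B and TUBA1C and the microtubule-associated protein gene MAP4 were followed by RNA-seq in ovarian cancer cell lines treated with quinacrine (QC), an antimalarial drug. The members are a list of gene names, and all 10 were found among the 60669 gene IDs of the count table and passed the filter on low counts, which left 18720 genes. Each of 6 established human lines was grown in medium with 8 µM QC or with vehicle buffer for 6 h, and 1 library was made per line and treatment, 12 in all. HeyA8, SKOV3 and OV2008 are labelled sensitive to chemotherapy, and HeyA8-MDR, SKOV3-TR and C13, each grown out of 1 of them under drug, are labelled resistant, which the design text of the series refers to platinum. By the study's methods HeyA8-MDR is resistant to carboplatin, SKOV3-TR to taxol and C13 to cisplatin, so that a single resistant line, SKOV3-TR, was described there as resistant to a drug that binds tubulin. A line and its resistant partner are called a family below. The 3 sensitive and 3 resistant lines served as replicates of the groups, no line had a replicate of its own, and p-values measure the spread between lines unless stated otherwise. The 2 lines of a family share an origin, while tests over 6 lines count them as independent, so their p-values may be too small.

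Microtubules are polymers of a dimer of alpha- and beta-tubulin, each made from several genes whose proteins, the isotypes, differ mostly at the carboxy-terminal tail. Taxanes such as paclitaxel (taxol) bind beta-tubulin within the polymer and stabilise it, and high TUBB3 is known from drug-resistant tumours. Cells also tune tubulin mRNA to the amount of free dimer: the factor TTC5 recognises the first residues of tubulin as they leave the ribosome and recruits decay of the mRNA being translated. MAP4 is the main microtubule-binding and stabilising protein of this kind in cells that are not neurons.

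The first 30 coding bases are shown because their first 4 codons, in capitals, encode the element that TTC5 reads, and because they separate tubulins from MAP4. The sequences were read from the main annotated transcript of each gene (GENCODE, GRCh37), 5′ to 3′.
TUBB: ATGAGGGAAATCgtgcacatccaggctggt
TUBB4B: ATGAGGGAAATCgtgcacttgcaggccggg
TUBB3: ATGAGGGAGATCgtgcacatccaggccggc
TUBB6: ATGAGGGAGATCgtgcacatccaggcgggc
TUBB2A: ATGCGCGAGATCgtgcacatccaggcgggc
TUBB2B: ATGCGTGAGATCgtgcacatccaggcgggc
TUBA1B: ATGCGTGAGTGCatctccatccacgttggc
MAP4: ATGGCTGACCTCagtcttgcagatgcatta
All 6 beta members encode methionine, arginine, glutamate and isoleucine here, and all 3 alpha members, which share these 12 capital bases, encode methionine, arginine, glutamate and cysteine. MAP4, which is no tubulin, starts otherwise.

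The last 60 coding bases of the beta members before the stop codon hold the tail by which isotypes are told apart, with the last codon in capitals.
TUBB: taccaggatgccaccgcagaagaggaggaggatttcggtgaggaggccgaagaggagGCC
TUBB4B: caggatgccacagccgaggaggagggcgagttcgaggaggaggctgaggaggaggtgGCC
TUBB6: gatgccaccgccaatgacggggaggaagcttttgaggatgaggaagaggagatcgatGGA
TUBB3: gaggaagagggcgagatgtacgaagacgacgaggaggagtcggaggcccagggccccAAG
TUBB2A: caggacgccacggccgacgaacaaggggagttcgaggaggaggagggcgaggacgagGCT
TUBB2B: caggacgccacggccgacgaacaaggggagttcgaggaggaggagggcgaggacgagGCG
TUBB2A and TUBB2B had 98.2% identical bases over the whole coding sequence, while the other beta pairs shared between 81.3% and 88.1%. Among the alpha members identity was 97.3% for TUBA1A with TUBA1B, 96.9% for TUBA1B with TUBA1C and 96.0% for TUBA1A with TUBA1C.

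The genes lie, on GRCh37, at chr6:30685212-30693315 (TUBB, plus strand), chr6:3153731-3157778 (TUBB2A, minus), chr6:3223558-3231964 (TUBB2B, minus), chr16:89987800-90005169 (TUBB3, plus), chr9:140135739-140138159 (TUBB4B, plus) and chr18:12307668-12344319 (TUBB6, plus). The alpha genes sit side by side on chromosome 12, at chr12:49578469-49582863 (TUBA1A, minus), chr12:49521565-49525180 (TUBA1B, minus) and chr12:49582519-49668383 (TUBA1C, plus), and MAP4 lies at chr3:47892180-48130762 (minus). Each tubulin gene has 4 exons in the transcript used, and MAP4 has 21. TUBA1A and TUBA1C overlap in 6.22% of the exonic bases of TUBA1A, on opposite strands. TUBA1A was at 10.1 or less in OV2008 and C13, where TUBA1C was at 244 or more.

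The likeness of the coding sequences limits how well reads could be assigned. The share of a gene's transcript whose 50-base words also occur in another annotated gene was 92.8% for TUBB3, 87.1% for TUBA1B, 64.6% for TUBB2A, 54.9% for TUBB2B, 50.6% for TUBA1A, 42.7% for TUBA1C, 32.7% for TUBB, 15.3% for TUBB4B, 1.09% for TUBB6 and 0% for MAP4. For TUBB3 the sharing gene is a readthrough gene on the same strand (ENSG00000198211) that covers 92.8% of its exonic bases and had between 0 and 1 counts per library. Reads there may have been left out as ambiguous, and the level of TUBB3 may be a lower limit. For TUBA1B it is mostly the antisense gene TUBA1B-AS1 on 72.6% of its exonic bases, which had between 3 and 18 counts per library against between 1969 and 20369 for TUBA1B. The strand setting of the counting was not stated, and levels of TUBB3, TUBB2A, TUBB2B and the alpha genes are therefore uncertain relative to other genes, while each gene's comparison between libraries uses the same part of it. How far this touched the results was not tested.

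Total counts per library lay between 17782556 and 30585059. Leukocyte markers summed to at most 0.665 CPM (counts scaled to library size) in any library. Of the 5 ovarian or Mullerian markers, PAX8 was at 234 CPM or more in the HeyA8 and SKOV3 families, and at 7.56 to 24.8 CPM in OV2008 and C13, where the 5 squamous markers summed to between 2870 and 14200 CPM. The other ovarian markers did not follow PAX8: MSLN was at 16.9 CPM in C13 with vehicle against 2.84 in HeyA8, and WT1 was at 3.19 in OV2008 with vehicle against 1.25 in SKOV3. The HeyA8 QC library lay part of the way from HeyA8 to HeyA8-MDR: 41 genes at least 8-fold higher in HeyA8-MDR than in HeyA8 with vehicle stood a median of 38.8% of the way in it, and 84 genes at least 8-fold lower stood 51.3% of the way. For the members, the main comparisons that use that library are given with and without it. The test among the 6 lines, MAP4 over 6 lines and the gene lists around tubulin are given with it only. Levels and shares are given by library.

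TUBB4B, a beta isotype made in most tissues, had the highest level per kilobase of transcript among the beta genes in 5 of the 6 lines with vehicle, although in HeyA8 its range over both libraries overlapped that of TUBB6, which led there with QC (357 against 320.5 per kilobase). Its normalised level (CPM after TMM scaling, the unit of every level below unless given per kilobase) was 997 with vehicle and 501 with QC in HeyA8, and 368 and 319 in HeyA8-MDR. It was 126 and 191 in SKOV3 and 208 and 433 in SKOV3-TR. It was 1416 and 767 in OV2008 and 1368 and 604 in C13. SKOV3 was lowest, and OV2008 and C13 with vehicle were highest, 11.2-fold apart over all libraries. In bulk RNA, fewer cells that express a gene and less of its RNA per cell cannot be told apart.

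TUBB6, the beta isotype whose protein loosens microtubules when abundant, was highest in the HeyA8 family, at 1019 with vehicle and 671 with QC in HeyA8 and 631 and 477 in HeyA8-MDR. It was lowest in SKOV3, at 57.3 and 72.1, and in SKOV3-TR, at 83.4 and 110. OV2008 held 247 and 192 and C13 391 and 279. The libraries of the 3 families did not overlap, and the span was 17.8-fold.

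TUBB, the beta-tubulin of dividing cells in general, varied least among the beta members, 3.37-fold. It was at 173 with vehicle and 99.8 with QC in HeyA8, at 87.8 and 75.9 in HeyA8-MDR, at 109 and 108 in SKOV3 and at 163 and 190 in SKOV3-TR. OV2008 had 218 and 110, and C13 had 256 and 123. Its highest values were thus the vehicle libraries of the OV2008 family.

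TUBB3, TUBB2A and TUBB2B, beta isotypes best known from neurons, had the lowest levels of the 10 members per kilobase of transcript, by their medians. TUBB3, whose level may be a lower limit, lay between 0.840 (OV2008 with vehicle, 15 counts) and 5.70 (SKOV3-TR with vehicle, 193 counts), with a median of 3.83. TUBB2A lay between 2.95 in SKOV3-TR with vehicle and 13.4 in HeyA8 with vehicle. TUBB2B stood out in a single line: it was at 12.6 with vehicle and 8.16 with QC in SKOV3-TR (427 and 154 counts), at 1.76 and 1.82 in SKOV3, and between 0.168 and 1.06 in the other 4 lines, from 3 to 24 counts.

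Among the alpha genes, TUBA1A, the isotype of neurons and of many migrating cells, had the largest spread between lines. It was at 169 with vehicle and 234.5 with QC in SKOV3-TR, at 84.0 and 84.1 in SKOV3, at 94.1 and 69.4 in HeyA8 and at 69.6 and 55.7 in HeyA8-MDR. It was at 6.72 and 10.1 in OV2008 and at 3.79 and 5.99 in C13. The OV2008 family lay below all other libraries, and the highest and lowest library were 61.8-fold apart.

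TUBA1B, the most abundant alpha isotype of dividing cells, was at 675 and 357 in HeyA8, 187 and 240 in HeyA8-MDR, 82.4 and 134 in SKOV3, 205 and 321 in SKOV3-TR, 859 and 505 in OV2008 and 678 and 401 in C13, with vehicle and QC in that order. TUBA1C, its close copy, ran from 110 in SKOV3 with vehicle to 492 in OV2008 with vehicle. MAP4 was the steadiest member, between 240 in C13 with QC and 656 in HeyA8 with vehicle, 2.73-fold apart.

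**Figure D1:**
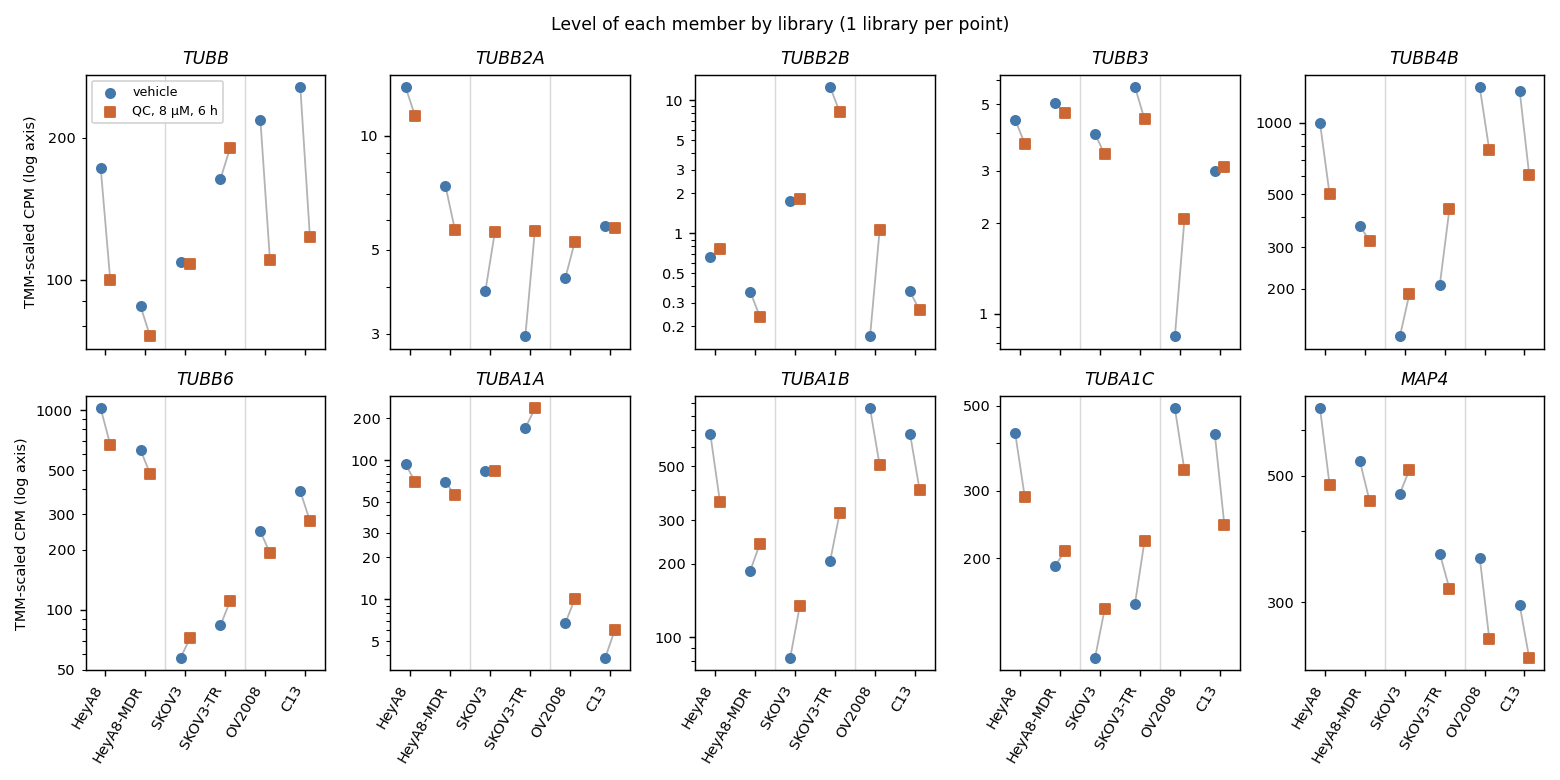
TMM-scaled CPM on a log axis for each of the 10 members, with 1 point per library, circles for vehicle and squares for QC, and a line joining the libraries of 1 cell line. TUBB6 separates the families, TUBA1A is at 10.1 or less in OV2008 and C13, and TUBB2B is at 8.16 or more only in SKOV3-TR.

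All 10 members differed among the 6 lines at an adjusted p under 0.05 (edgeR's quasi-likelihood F-test, Benjamini-Hochberg adjustment), as did 84.5% of all genes tested. In this test p-values do not measure the spread between lines. They set line differences against the scatter inside each line, between treatments, that a common QC term left over. No line had replicates, so how far a line varies under a single treatment was not measured. The standard deviation of the line means on the log2 scale was 2.07 for TUBA1A, 1.43 for TUBB2B, 1.43 for TUBB6 and 1.07 for TUBB4B, and 0.44 for TUBB and for MAP4. Over the 12 libraries, the genes whose log2 level followed TUBA1A most closely were BNC2, NUMB and ZNF738 (Pearson's r 0.985, 0.983 and 0.980). Those nearest TUBB2B were HMGCLL1, TRO and CABCOCO1 (0.975, 0.971 and 0.971), and those nearest TUBB6 were ECM1, MON1B and CANT1 (0.981, 0.975 and 0.974). The 12 points are 6 pairs of libraries of the same line, so these values describe line differences.

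Per kilobase of transcript, the median level over the 12 libraries was 299 CPM for TUBB4B, 209 for TUBA1B, 140 for TUBB6, 82.5 for TUBA1C, 46.4 for TUBB, 44.3 for MAP4, 41.6 for TUBA1A, 3.48 for TUBB2A, 2.25 for TUBB3 and 0.373 for TUBB2B. Ranges over libraries overlapped for every neighbouring pair in this order. With the number of gene-specific 50-base positions in place of length, TUBA1B came first (1660), then TUBB4B (364), and TUBB3 (31.9) moved above TUBB2A (10.1). By this measure TUBB3 was at 47.5 and TUBB6 at 46.1 in SKOV3-TR with vehicle.

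The make-up of the beta-tubulin mRNA pool differed from family to family. TUBB4B made 80.4% of the per-kilobase sum of the 6 beta genes in OV2008 and 73.5% in C13 with vehicle. TUBB6 made 43.0% in HeyA8 and 54.7% in HeyA8-MDR, where it was the leading isotype. TUBB reached 27.1% in SKOV3 and 25.6% in SKOV3-TR against 5.45% to 8.55% in the other 4 lines. TUBB3 made between 0.0437% and 1.45% of the sum in all libraries, or between 0.505% and 13.9% by gene-specific positions.

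In the alpha pool TUBA1B made between 36.2% and 74.8%, TUBA1C between 18.9% and 30.2% and TUBA1A between 0.399% (C13) and 36.1% (SKOV3-TR). By gene-specific positions TUBA1B made between 69.9% and 93.0%, so that the alpha shares depend on how shared sequence is counted.

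**Figure D2:**
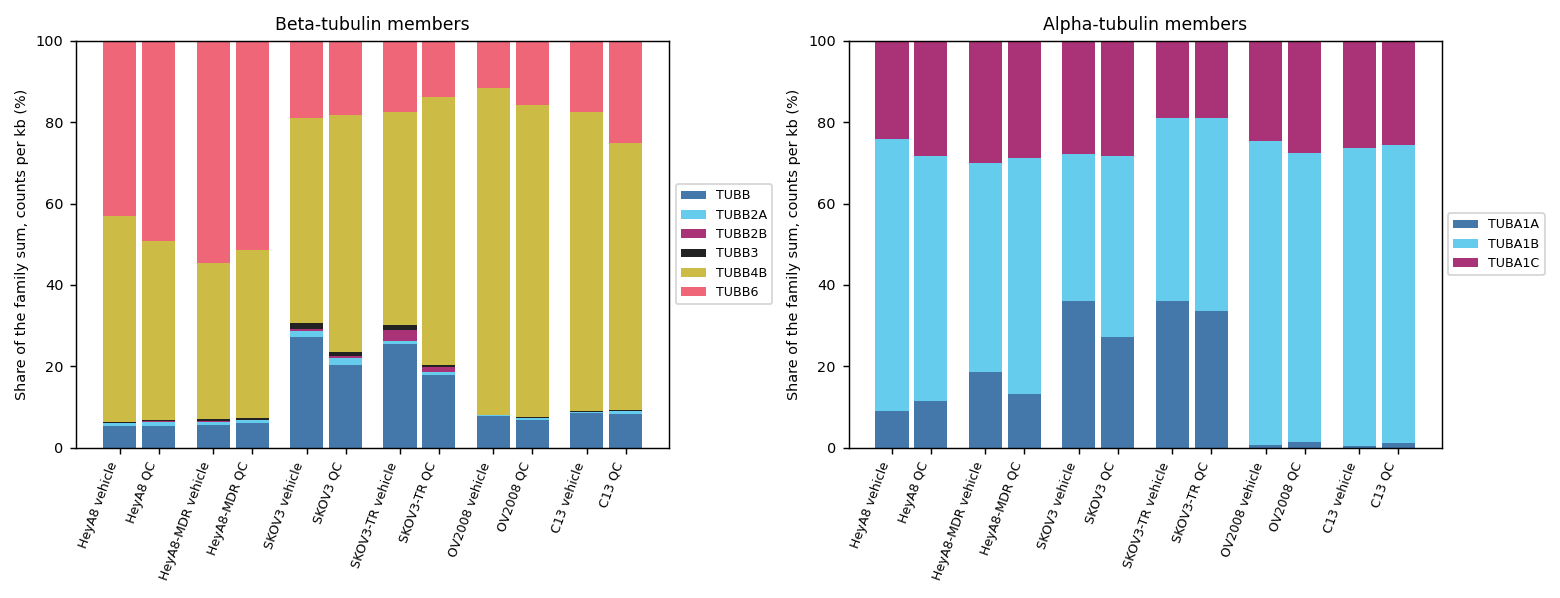
Stacked bars of the share of each isotype in the sum of the 6 beta genes (left) and the 3 alpha genes (right), from counts per kilobase of transcript, in percent, for the 12 libraries, 1 bar each. TUBB6 takes 43.0% to 54.7% of the beta sum in the HeyA8 family and TUBA1A at most 1.38% of the alpha sum in OV2008 and C13.

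The shares with QC were compared with those with vehicle over the 6 lines. No share passed: the smallest unadjusted p of an exact two-sided sign-flip test, which can give 0.03125 at best with 6 lines, was 0.0625 for TUBB2A, whose share was higher with QC in 5 of 6 lines, by 0.180 ± 0.135 percentage points (SD, n = 6), and its p adjusted over the 9 shares was 0.562. TUBB4B made 57.6% ± 15.9 with vehicle and 58.6% ± 13.6 with QC (exact sign-flip p = 0.812, higher in 3 of 6 lines). Without HeyA8 the TUBB2A share was higher in 4 of 5 lines, by 0.157 ± 0.137 points (exact sign-flip p = 0.125, where 5 lines cannot go below 0.0625). For resistant against sensitive lines an exact permutation test of 3 against 3 cannot go below 0.1, so the shares are described by pair. With vehicle the TUBB2B share was 0.0275% in HeyA8 and 0.0308% in HeyA8-MDR, 0.570% in SKOV3 and 2.58% in SKOV3-TR, and 0.00776% in OV2008 and 0.0160% in C13. With vehicle it was thus higher in the resistant line of each pair, from 3 to 15 counts in the HeyA8 and OV2008 families. With QC it was lower in HeyA8-MDR (0.0249%) than in HeyA8 (0.055%) and lower in C13 (0.0233%) than in OV2008 (0.0858%). Only SKOV3-TR stayed above its partner with QC, at 1.01% against 0.45%.

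Over all 6 lines QC changed no member at an adjusted p under 0.05 with edgeR's quasi-likelihood test, and DESeq2 called 0 as well. No gene of the 18720 passed in edgeR (0%), and 522 did in DESeq2, none of them a member. At an unadjusted p under 0.05, 1 of 10 members passed, against 15.2% of all genes. That member was TUBB, lower with QC in 5 of 6 lines, with a log2 fold change of -0.48 ± 0.17 (SE), unadjusted p = 0.0182 and adjusted p = 0.231. Without the HeyA8 QC library its log2 fold change was -0.41 (adjusted p = 0.427). MAP4 was also lower in 5 of 6 lines, at -0.25 ± 0.12 (adjusted p = 0.333). The median log2 fold change of the 10 members was -0.13, beside 0.00 for all genes tested.

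Split by label, 1 of 10 members passed an unadjusted p under 0.05 in sensitive lines (6.59% of all genes), TUBB at -0.60 ± 0.26 (adjusted p = 0.729, and -0.51 without the HeyA8 QC library), and 0 in resistant lines (6.03% of all genes). The QC effect in resistant minus that in sensitive lines had 0 of 10 members at an unadjusted p under 0.05 (1.16% of all genes). None of these 3 comparisons had a member at an adjusted p under 0.05, with edgeR, with DESeq2 or without the HeyA8 QC library. Of all 18720 genes, edgeR called 0 in each. DESeq2 called 32 in sensitive lines, 0 in resistant lines and 1 for the difference. Without the HeyA8 QC library edgeR called 2, 0 and 0 of 20130 genes in that order. TUBB differed by 0.25 ± 0.36 and TUBB4B by 0.32 ± 0.56 between the labels.

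**Figure D3:**
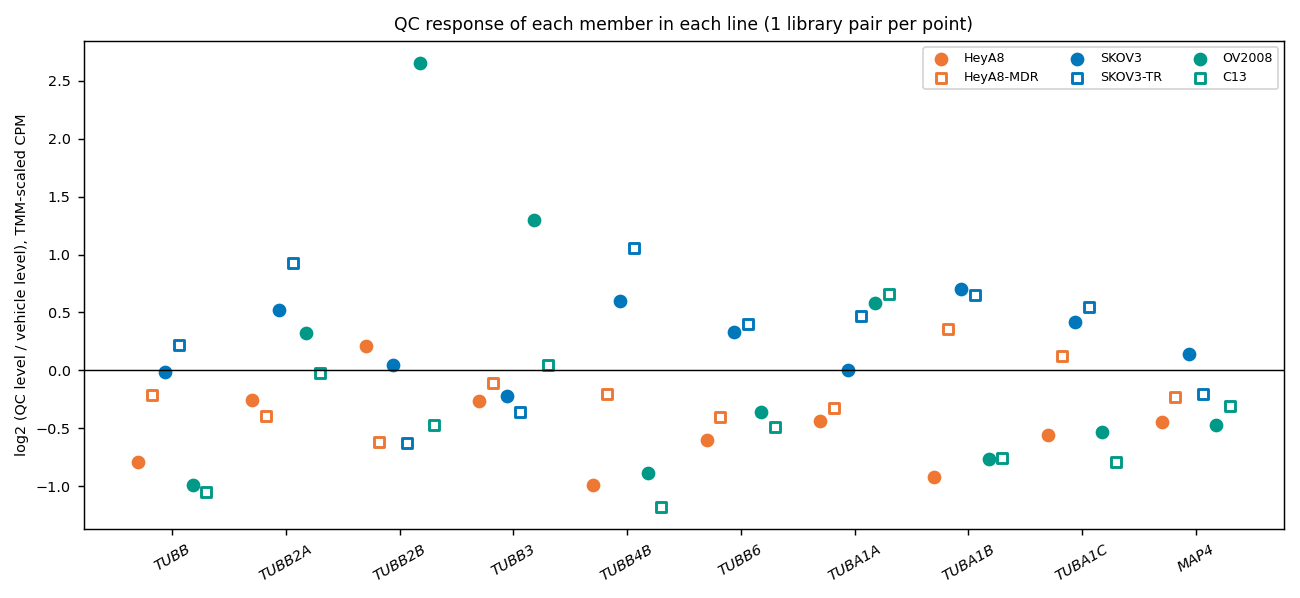
The log2 ratio of the QC level to the vehicle level (TMM-scaled CPM) of each member in each line, 1 library pair per point, coloured by family, with filled circles for sensitive and open squares for resistant lines. For TUBB4B and TUBB6 both points of the SKOV3 family lie above 0 and the other 4 below on this scale, while scaling to RPLP0 puts the OV2008 family term of TUBB6 at 0.05. The highest point, TUBB2B in OV2008, rests on 3 counts with vehicle and 24 with QC.

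On the TMM scale TUBB4B and TUBB6 were higher with QC in the SKOV3 family and lower in the other lines. With QC, TUBB4B was at 1.51 times its vehicle level in SKOV3 and 2.08 times in SKOV3-TR, but at 0.502 in HeyA8, 0.866 in HeyA8-MDR, 0.542 in OV2008 and 0.441 in C13. TUBB6 was at 1.26 and 1.32 times in the SKOV3 family and at 0.658, 0.756, 0.778 and 0.712 times in HeyA8, HeyA8-MDR, OV2008 and C13. Both lines of the SKOV3 family thus lay on one side and the other 4 lines on the opposite side for these 2 of 10 members (for TUBB6 not when scaled to RPLP0, as given below), a pattern that 4.57% of all genes showed in either direction. The summed level of the 9 tubulins with QC was 0.589 of vehicle in HeyA8, 0.896 in HeyA8-MDR, 0.595 in OV2008 and 0.533 in C13, and 1.29 and 1.53 of vehicle in SKOV3 and SKOV3-TR (exact two-sided sign-flip over 6 lines, p = 0.375, and over 5 lines without HeyA8, p = 0.625).

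A fit with 1 QC term per family, added after these values had been seen, gave each family's size and error. In the OV2008 family TUBB fell by 1.02 ± 0.18 on the log2 scale (adjusted p = 0.0258) and TUBB4B fell by 1.03 ± 0.22 (adjusted p = 0.0412), so 2 of 10 members passed, against 2.88% of all genes. At an unadjusted p under 0.05, 6 of 10 members were lower there (8.69% of all genes), the others being TUBB6 at -0.43, TUBA1B at -0.76, TUBA1C at -0.66 and MAP4 at -0.39. TUBA1A, scarce in this family, was higher, at 0.62 ± 0.19 (unadjusted p = 0.00898, adjusted p = 0.116). Scaled to RPLP0, a ribosomal protein mRNA that was itself lower with QC in this family (-0.48 ± 0.18), the median of all genes moved to 0.47. On that scale TUBB was at -0.54 (adjusted p = 0.0578), TUBB4B at -0.56 (adjusted p = 0.0443) and TUBA1A at 1.09 (adjusted p = 0.00428), and TUBB6 at 0.05 and MAP4 at 0.09 turned in direction. With it 3148 of 18720 genes were called in this family, 3067 of them higher with QC. Without the HeyA8 QC library 4 members were called, TUBA1B and TUBA1C besides TUBB and TUBB4B, against 1611 of 20130 genes in all. Each family holds 2 lines: without C13 or without OV2008 neither TUBB nor TUBB4B was called, with adjusted p between 0.193 and 0.444, and without SKOV3 the adjusted p of TUBB4B was 0.0511.

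In the HeyA8 family 0 of 10 members had an adjusted p under 0.05 with edgeR and 1 with DESeq2, TUBB6. Of all 18720 genes, 0 were called with edgeR and 1406 with DESeq2. At an unadjusted p under 0.05, 4 of 10 were lower with QC (9.88% of all genes): TUBB at -0.50, TUBB4B at -0.60, TUBB6 at -0.50 and TUBA1A at -0.38. Without the HeyA8 QC library only HeyA8-MDR remained, 0 of the 4 had an unadjusted p under 0.05, and the values were -0.21, -0.20, -0.40 and -0.32. TUBA1B differed in direction within the family, at 0.530 of vehicle in HeyA8 and 1.28 times vehicle in HeyA8-MDR.

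In the SKOV3 family 5 of 10 members were higher with QC at an unadjusted p under 0.05, against 2.57% of all genes. These were TUBB4B at 0.83 ± 0.22, TUBB2A at 0.72, TUBA1B at 0.68, TUBA1C at 0.48 and TUBB6 at 0.37. After adjustment 0 of 10 members passed with edgeR or DESeq2, where 0 and 26 of all 18720 genes did. The SKOV3 term minus the mean of the other 2 families was chosen after the members' levels had been seen, so its count of members is no test. It was higher at an unadjusted p under 0.05 for 6 of 10 members (5.03% of all genes). It was 1.65 ± 0.27 for TUBB4B (unadjusted p = 0.000126, adjusted p = 0.158), 1.20 for TUBA1B, 0.92 for TUBA1C, 0.86 for TUBB, 0.83 for TUBB6 and 0.81 for TUBB2A. edgeR called 0 of them after adjustment and DESeq2 called 4, namely TUBB, TUBB4B, TUBB6 and TUBA1C. Of all 18720 genes, edgeR called 0 and DESeq2 237. Without the HeyA8 QC library TUBB4B stood at 1.45 and had an adjusted p of 0.0444 in edgeR, and the other 5 stood between 0.72 (TUBB) and 0.88 (TUBA1B).

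In resistant against sensitive lines with vehicle, compared within families, no member passed. At an unadjusted p under 0.05 there were 0 of 10 members against 3.77% of all genes, and 0 after adjustment with edgeR or DESeq2. After adjustment edgeR called 0 and DESeq2 45 of all 16091 genes. TUBB3 was at 0.83 ± 0.60 and TUBB2B at 1.14 ± 0.97 on the log2 scale, and TUBB at -0.04 ± 0.38. The pairs were therefore also compared singly, with each line's vehicle library and QC library as its 2 samples, so that p-values measure the spread between such libraries. The members' directions differed from pair to pair.

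In SKOV3-TR against SKOV3, 3 of 10 members were called, close to the 31.5% of all genes called between these lines. TUBB2B was higher by 2.55 ± 0.58 on the log2 scale (adjusted p = 0.00577), TUBA1A by 1.25 ± 0.27 (adjusted p = 0.00463) and TUBA1B by 1.28 ± 0.39 (adjusted p = 0.0269). Both SKOV3-TR libraries lay above both SKOV3 libraries for all 3 genes. TUBB2B differed by 1.92 in the QC libraries alone, as a difference of log2(CPM + 0.5) with TMM scaling over those 6 libraries, which understates low genes, and TUBA1B had an adjusted p of 0.175 when sensitive and resistant lines had separate QC terms. At an unadjusted p under 0.05, 6 of 10 were higher (22.1% of all genes), with TUBB at 0.72, TUBB4B at 1.03 and TUBB6 at 0.58 besides. MAP4 was at -0.53 ± 0.20 (adjusted p = 0.0645, and 0.0419 with DESeq2). TUBB3 was at 0.46 ± 0.42 (adjusted p = 0.430).

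In HeyA8-MDR against HeyA8, 0 of 10 members were called with edgeR, against 4.08% of all genes. DESeq2 called 1, TUBA1B, against 1793 of 18720 genes in all. At an unadjusted p under 0.05, 6 of 10 were lower in HeyA8-MDR (14.3% of all genes). They were TUBA1B at -1.25 ± 0.40 (adjusted p = 0.0933), TUBB4B at -1.09, TUBB2A at -0.92, TUBA1C at -0.82, TUBB at -0.69 and TUBB6 at -0.60. Without the HeyA8 QC library TUBA1B stood at -1.69 (adjusted p = 0.0321), which rests on 1 HeyA8 library assumed to vary like the others, and the other 5 stood between -1.48 (TUBB4B) and -0.84 (TUBB6). TUBB3 was at 0.26 ± 0.42.

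In C13 against OV2008, 0 of 10 were called with edgeR or DESeq2, against 9.46% of all genes, and 3 of 10 had an unadjusted p under 0.05, against 25.4%. TUBB3 was at 1.04 ± 0.45 (adjusted p = 0.164). As a difference of log2(CPM + 0.5) it was 1.35 in the vehicle libraries alone and 0.48 in the QC libraries alone. TUBB6 was at 0.61 ± 0.26 and TUBA1A at -0.78 ± 0.29.

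**Figure D4:**
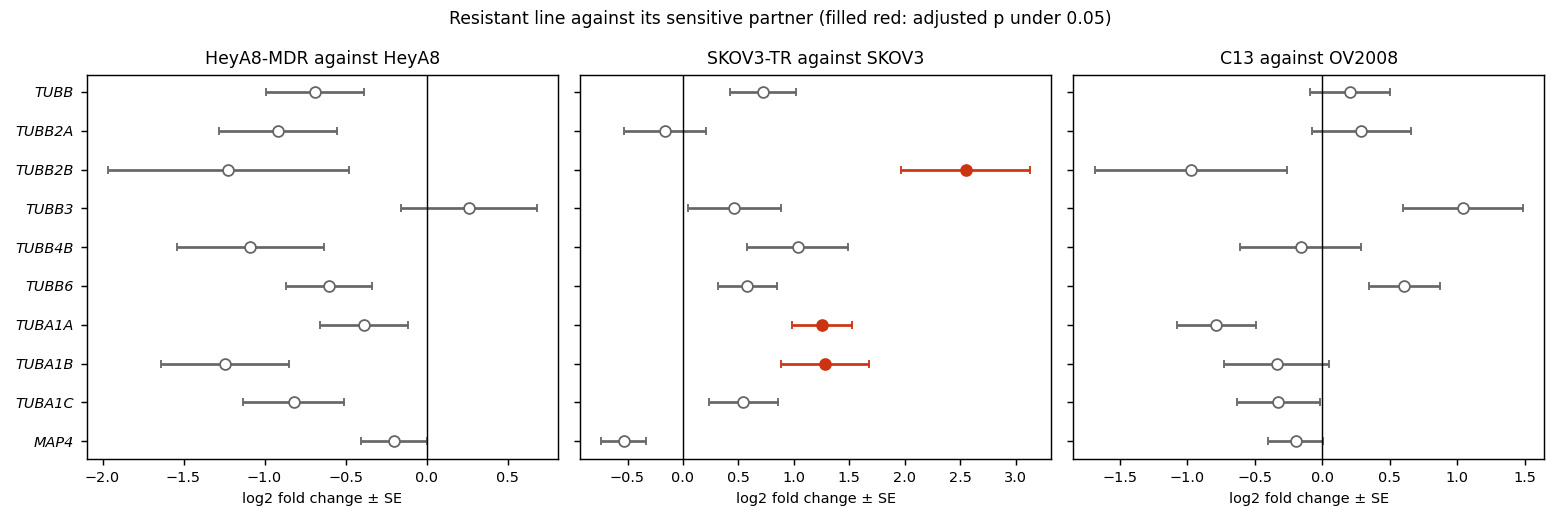
The log2 fold change (± SE from the edgeR fit) of each member in the resistant line against its sensitive partner, with filled red points for an adjusted p under 0.05. Only TUBB2B, TUBA1A and TUBA1B in SKOV3-TR are filled. Most members lie below 0 in HeyA8-MDR and above 0 in SKOV3-TR.

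ABCB1, the efflux pump that carries taxanes out of cells, is shown beside the targets. It was at 0.167 and 0.454 in SKOV3 (4 and 10 counts) and at 334 and 147 in SKOV3-TR with vehicle and QC. In HeyA8 it was at 4.12 and 26.5 and in HeyA8-MDR at 53.9 and 54.6, while OV2008 had 38.2 and 8.38 and C13 0.599 and 0.452. The SKOV3-TR difference was 9.55 ± 1.13 on the log2 scale (adjusted p = 7.49e-05), larger than that of any tubulin member in that pair. The HeyA8 QC value lay toward that of HeyA8-MDR.

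The machinery around tubulin was taken from lists, and its results are given with the HeyA8 QC library included. Over 6 lines edgeR called 0 of all 18720 genes at an adjusted p under 0.05, and thus 0 of any list, which says nothing of the lists. The counts at an unadjusted p under 0.05 were 2 of 9 tested other tubulins (both lower), 1 of 20 folding factors (higher), 1 of 3 genes of tubulin mRNA autoregulation (lower), 7 of 20 microtubule-associated proteins (5 higher and 2 lower), 1 of 12 microtubule destabilisers (higher), 3 of 16 tubulin-modifying enzymes (1 higher and 2 lower) and 2 of 9 genes of the gamma-tubulin complex (both higher). The share among all genes was that given for the 6 lines above, 15.2%. The list medians lay between -0.14 and 0.15, the lowest for other tubulins and the highest for microtubule-associated proteins.

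TTC5, which reads the start of nascent tubulin, was lower with QC in 6 of 6 lines. It went from 35.98 to 17.1 in HeyA8, from 20.0 to 9.12 in HeyA8-MDR, from 13.3 to 10.8 in SKOV3, from 23.5 to 15.8 in SKOV3-TR, from 13.8 to 7.94 in OV2008 and from 14.9 to 10.6 in C13. Its log2 fold change was -0.73 ± 0.16, with an unadjusted p of 0.000487 and an adjusted p of 0.141, so it did not pass. SCAPER, which works with TTC5 in the decay of tubulin mRNA, was at 0.29 ± 0.14. Of the other lists, the genes with the smallest p over 6 lines were MAP1A at -1.24 (adjusted p = 0.141) and CKAP5, a microtubule polymerase, at 0.36, VBP1, a prefoldin subunit, at 0.68 and CCT8, a chaperonin subunit, at 0.30. TTLL4, a tubulin glutamylase, was at -0.60 and AGTPBP1, which removes glutamates, at 0.41. KIF18A, a kinesin of the spindle, was at 0.71 and FIGNL1 at -0.32, NEDD1 at 0.49 and MZT1, both of the gamma-tubulin complex, at 0.34. TUBAL3 was at -1.59, from 2 to 153 counts, and TUBE1 at -0.44.

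In the contrast of the SKOV3 family with the others, the genes with the smallest p among the microtubule-associated proteins were TPX2, a spindle assembly factor, at 1.16 ± 0.28 (adjusted p = 0.250) and MAP1A at 1.45. Among the destabilisers they were KIF2C, a kinesin that depolymerises microtubules, at 1.38 ± 0.31 (adjusted p = 0.230) and STMN1, which sequesters free dimer, at 0.76. KIF2C went from 32.0 to 79.6 in SKOV3 and from 111 to 157 in SKOV3-TR with QC, and from 182 to 99.7 in HeyA8, from 75.8 to 72.0 in HeyA8-MDR, from 145 to 124 in OV2008 and from 185 to 109 in C13. KIF2C was thus higher with QC in the SKOV3 family and lower in the other 4 lines, while TPX2 and STMN1 were also higher with QC in HeyA8-MDR, from 270.4 to 379.6 and from 208 to 276. MAP1A was lower with QC in the SKOV3 family too, from 5.52 to 4.40 in SKOV3 and from 14.0 to 11.5 in SKOV3-TR. Its positive difference stands for larger falls in the other families, -1.84 in HeyA8 and -1.68 in OV2008. In the OV2008 family, by the fit added after the values had been seen, QC changed 3 of 20 microtubule-associated proteins and 1 of 12 destabilisers at an adjusted p under 0.05, beside 540 of 18720 genes in all (2.88%), a number that was 120 without C13 and 3 without OV2008. MAP2 rose by 1.57 ± 0.28 (adjusted p = 0.0258), MAP1A fell by 1.68 ± 0.34 (adjusted p = 0.0361) and STMN3, a stathmin, fell by 1.09 ± 0.19 (adjusted p = 0.0258).

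SKOV3-TR differed from SKOV3 in 10 of 20 microtubule-associated proteins (5 higher and 5 lower), 7 of 12 destabilisers (5 higher and 2 lower), 4 of 16 modifying enzymes (1 higher and 3 lower), 3 of 9 gamma-tubulin complex genes (all higher), 3 of 20 folding factors (1 higher and 2 lower), 1 of 9 other tubulins (higher) and 0 of 3 autoregulation genes, all at an adjusted p under 0.05 in edgeR and beside the 31.5% of all genes given above. In the autoregulation list 2 of 3 had an unadjusted p under 0.05, as had 42.1% of all genes. MAP2, a microtubule-binding protein of dendrites, was at 14.1 and 15.9 in SKOV3 and at 236 and 240 in SKOV3-TR, higher by 3.99 ± 0.55 on the log2 scale (adjusted p = 0.000230). TUBB4A, a further beta isotype known from the brain, was at 5.69 and 5.90 in SKOV3 and at 21.5 and 21.6 in SKOV3-TR (1.89 ± 0.47, adjusted p = 0.00906). FIGNL1, an ATPase related to microtubule-severing enzymes, was at 3.30 and 3.54 against 13.3 and 13.2 (1.95 ± 0.28, adjusted p = 0.000274). These 3 genes, named for their small p in this contrast, were higher in both SKOV3-TR libraries than in both SKOV3 libraries, as was TUBB2B. FIGNL1 was higher still in HeyA8, OV2008 and C13, at 17.6 or more. By the same choice FIGN (1.64), TUBGCP4 (1.11) and TUBGCP5 (1.38) were also higher in SKOV3-TR. AGTPBP1 (-2.01), MAP1B (-1.57), TBCEL (-1.37), TBCC (-1.21) and TTLL3 (-0.94) were called lower, at adjusted p between 0.000173 and 0.0240 in edgeR. The 6 neuronal markers summed to between 0.376 and 10.2 CPM over the 4 libraries of this family. The sums were higher in the HeyA8 family, 23.3 to 47.3 CPM, and in the OV2008 family, 28.5 to 47.4 CPM. The part of these markers in the differences between SKOV3-TR and SKOV3 was not tested.

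The promoters of TUBB and TUBB4B are shown because these genes were called together in the OV2008 family, with CCAAT and GGGCGG motifs of either strand in capitals, from 250 bases before to 50 after the RefSeq start (GRCh38.p14). TUBB lies on the plus strand at chr6:30720102-30720401 and TUBB4B on the plus strand at chr9:137241037-137241336.
TUBB: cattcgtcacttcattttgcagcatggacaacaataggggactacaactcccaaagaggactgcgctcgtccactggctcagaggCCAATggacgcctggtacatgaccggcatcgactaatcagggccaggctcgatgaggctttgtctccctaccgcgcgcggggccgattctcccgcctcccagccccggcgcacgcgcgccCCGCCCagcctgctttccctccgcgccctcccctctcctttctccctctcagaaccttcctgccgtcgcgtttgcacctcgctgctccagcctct
TUBB4B: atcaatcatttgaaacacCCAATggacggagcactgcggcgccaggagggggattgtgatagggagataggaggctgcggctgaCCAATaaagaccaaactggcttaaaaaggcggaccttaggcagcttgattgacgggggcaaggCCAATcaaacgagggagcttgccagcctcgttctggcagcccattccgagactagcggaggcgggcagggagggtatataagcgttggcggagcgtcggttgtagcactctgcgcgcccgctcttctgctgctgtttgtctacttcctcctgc
For each member the first listed promoter was used, and other starts of the same gene were not counted. CCAAT, the letters bound by the factor NF-Y, occurred on either strand in 6 of the 10 members' promoters and in 34.6% of 35116 promoters in all. GGGCGG, the letters of the Sp1 site, occurred in 5 of 10 and 45% of all, and TATAAA in 1 of 10 and 11.5%. CACGTG, an E-box, occurred in 0 of 10 and 7.26%. These are matches of letters and not measured binding.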

How the data were processed

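RNA-seq libraries (TruSeq RNA kit, polyA RNA) were counted on genes by the authors, who deposited raw read counts per gene for 12 libraries, with no normalization. The paper names TopHat, hg19 and HTSeq, while the submitters' processing notes name STAR 2.7.3a, HTSeq 0.6.1p1 and GRCh38.p13, and which of them made the table is not given in the sources used here, nor is the strand setting. The counts carry versioned Ensembl IDs, of which 58663 of 60669 were paired with a symbol. No column of per-sample values was left unused.

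Counts were fitted in R 4.3.3 with edgeR 4.0.16 (filterByExpr defaults, TMM, quasi-likelihood test, two-sided, Benjamini-Hochberg over all genes tested), with 1 term per cell line and 1 QC term, 2 QC terms by label, or, added after the data had been seen, 1 QC term per family. The resistant lines with vehicle were compared with the family as a block, over 16091 genes. The line block pairs vehicle and QC libraries of the same line, whose deviations from the group means correlated between 0.911 and 0.942 across genes. Alternatives included DESeq2 1.42.0. Lengths and gene-specific 50-base positions came from GENCODE transcripts. The fit was tested on simulated data. Plots used matplotlib 3.10.9.

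The members and gene lists were chosen with earlier results of these data known. Genes named outside the members were ABCB1, RPLP0, the 2 genes of each list with the smallest p in the contrast described, and the 3 genes most correlated with each of the 3 members that varied most between lines. PAX8, MSLN and WT1 were named from the marker list, after their values were seen, as a check of the labels. The coding ends of the alpha genes are not reported here.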

Additional observations from a re-analysis of the deposited data

Results flagged for a closer look

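The QC effects on TUBB4B and TUBB6 differed between families: both genes were higher with QC in both lines of the SKOV3 family and lower in each line of the HeyA8 and OV2008 families, except that scaling to RPLP0 put TUBB6 in the OV2008 family at 0.05. The difference, the SKOV3 term minus the mean of the other 2 families, was 1.65 for TUBB4B (adjusted p = 0.158 in edgeR, 8.42e-05 in DESeq2) and 0.83 for TUBB6 (adjusted p = 0.250 in edgeR, 0.00137 in DESeq2). It was chosen after the levels had been seen, and 4.57% of all genes showed such a split.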

How the results depend on the processing

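No member was called under any alternative for the QC effect in sensitive lines, in resistant lines or their difference, or for resistant against sensitive lines with vehicle. Without the filter on low counts, genes called in all were 195, 35 and 5 of 39590 and 146 of 36276, in that order. No isotype share passed under plain counts or gene-specific positions. With 1 line left out, an exact sign-flip test cannot go below 0.0625, so those values say nothing of stability. Removing the replicate block gave 0 members for each QC effect over 6 lines, by label and for the difference, the same as with it. With no filter on low counts, the members called were 1 for QC over 6 lines (TUBB, adjusted p = 0.0396), 1 in each of the HeyA8 and SKOV3 families, 4 in the OV2008 family, 3 for the SKOV3 family minus the others, 4 for HeyA8-MDR, 5 for SKOV3-TR and 1 for C13. In the same order, the genes called in all were 791, 1210, 117, 1510, 399, 2030, 6560 and 2474 of 39590. DESeq2 called 1 in the HeyA8 family, 4 in the OV2008 family, 4 for the SKOV3 family minus the others and 1 for HeyA8-MDR. Over all genes it called 1406, 1449, 237 and 1793 of 18720 in that order. Without the HeyA8 QC library the numbers were 4 in the OV2008 family and 1 for the SKOV3 family minus the others. Beside them stood 1611 and 28 of 20130 genes in all. Leaving out 1 line gave between 0 and 4 in the OV2008 family and between 0 and 4 for the SKOV3 family minus the others, where 4 came without HeyA8-MDR. Scaling to RPLP0 called 1 member for that difference, against 8 of 18720 genes, and in the OV2008 family it reversed TUBB6 to 0.0505 and MAP4 to 0.0864. That scaling moved the median of all genes to 0.18 over 6 lines, 0.29 in sensitive lines, -0.20 for resistant minus sensitive lines, -0.13 for the SKOV3 family minus the others and 0.47 in the OV2008 family, and library size moved that of C13 to 0.17. The causes were not tested. Of 471 alternative values for single members, 415 kept their call and direction, 40 gained a call, 7 lost one, 7 moved by more than their error and 2 reversed. With 1 library per line and treatment, TUBB2B and TUBB3 are limited by depth: for TUBB2B in OV2008, 3 and 24 counts give a ratio of 6.30 with an exact 95% interval, for counting error only, from 1.91 to 32.7.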
